A study of Arabidopsis thaliana with 12 samples.

Results

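The response of Arabidopsis thaliana seedlings to valinomycin in the presence of the bacterium Pseudomonas syringae pv. tomato DC3000 was measured here by comparing 3 libraries of seedlings given both agents with 3 libraries of seedlings given the bacterium alone. A gene was included when its values, in FPKM (fragments scaled to transcript length and library size), averaged at least 1 over the 12 libraries of the study, and 18048 of 20233 genes were. The groups were seedlings 2 to 3 weeks old that received 10 µM valinomycin together with DC3000 (the valinomycin+DC3000 group), DC3000 without valinomycin (the DC3000 group), 10 µM valinomycin without bacteria (the valinomycin group), or a mock treatment (the mock group), with 3 libraries each. Every group was infiltrated under vacuum and sampled 6 h later, and leaf was given as the tissue. The sources used here do not give the plant genotype, the bacterial dose or what the mock solution held. Nothing states that the 3 libraries of a group came from separate batches of plants, so the p-values rest on a spread between libraries that may be technical.

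Valinomycin is a cyclic antibiotic that carries potassium ions through lipid membranes, including the inner membrane of mitochondria, and so lowers the electrical potential across them. Plant cells answer a disturbed mitochondrion by retrograde signalling, in which membrane-bound NAC transcription factors are released from the endoplasmic reticulum, enter the nucleus and switch on genes for the alternative oxidase and other stress proteins. DC3000 is a leaf pathogen that injects effector proteins and makes coronatine, a toxin that mimics the active form of jasmonate, and its infection also raises abscisic acid signalling. Immune responses triggered by bacterial surface patterns run through receptor kinases, calcium, mitogen-activated protein kinases and WRKY transcription factors.

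The 6 libraries summed to between 1057472 and 1350272 FPKM. Steps in their low values correspond to about 11490000 to 13970000 fragments per library. Chloroplast genes took 35.0% ± 3.47 of the values in valinomycin+DC3000 seedlings and 37.8% ± 2.85 in DC3000 seedlings (mean ± SD of 3 libraries, here and below). The 2 ribosomal RNA loci took 16.6% ± 0.992 in valinomycin+DC3000 and 15.97% ± 4.71 in DC3000 seedlings. Valinomycin+DC3000 replicate 2 had the lowest chloroplast share of the 6, at 31.1%, and DC3000 replicate 3 the highest ribosomal share, at 21.4%. Values of all tested genes correlated between replicates at Pearson r of 0.953 to 0.990 across the 4 groups. The summed level of 9 guard cell genes was 53.1 to 60.6 FPKM in valinomycin+DC3000 libraries and 60.3 to 62.8 FPKM in DC3000 libraries. That of 8 root genes was 195.8 to 241 FPKM, against 236 to 343 FPKM in DC3000 libraries, although leaf is the labelled tissue, and most of it came from PYK10, a root and hypocotyl beta-glucosidase. The sum of 12 phloem and xylem genes was 274 to 306 FPKM, against 277 to 345 FPKM in DC3000 libraries. The sum of 10 genes of meristem, epidermis and trichomes was 216 to 223 FPKM, against 239 to 296 FPKM in DC3000 libraries. No gene of any kind has a deposited value of 0, so these sums cannot show whether a marker was absent. Markers without a value are left out of them, and of 12 root markers 8 had a value. In such bulk samples, fewer cells of a type and less RNA per cell cannot be told apart.

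Valinomycin changed the transcriptome of bacterium-treated seedlings in both directions, with the larger changes upward. Differences are log2(FPKM + 1) in valinomycin+DC3000 minus DC3000, given with their standard errors, and a gene was called at a limma adjusted p under 0.05. Of the 18048 genes, 2551 (14.1%) were called higher and 2436 (13.5%) lower, together 27.6%. A change of at least 2-fold was reached by 1159 genes upward (6.42%) and 358 downward (1.98%), together 8.41%, and one of at least 4-fold by 343 upward (1.9%) and 21 downward (0.116%). The median difference over all tested genes was -0.06, and the median of its absolute value was 0.30. The 2 groups of 3 libraries did not overlap for 23.8% of all genes upward and 26.1% downward. With 1 library left out, 2916 genes were called without valinomycin+DC3000 replicate 2, 3276 without DC3000 replicate 1 and 3320 without DC3000 replicate 2. Without the same libraries the number called lower was 1235, 1309 and 1265, and the number called higher without valinomycin+DC3000 replicate 2 was 1681. The lists of genes described below are shown together in the plot of list members. Their counts of called members are to be read beside the shares of all genes, 14.1% higher and 13.5% lower.

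**Figure D1:**
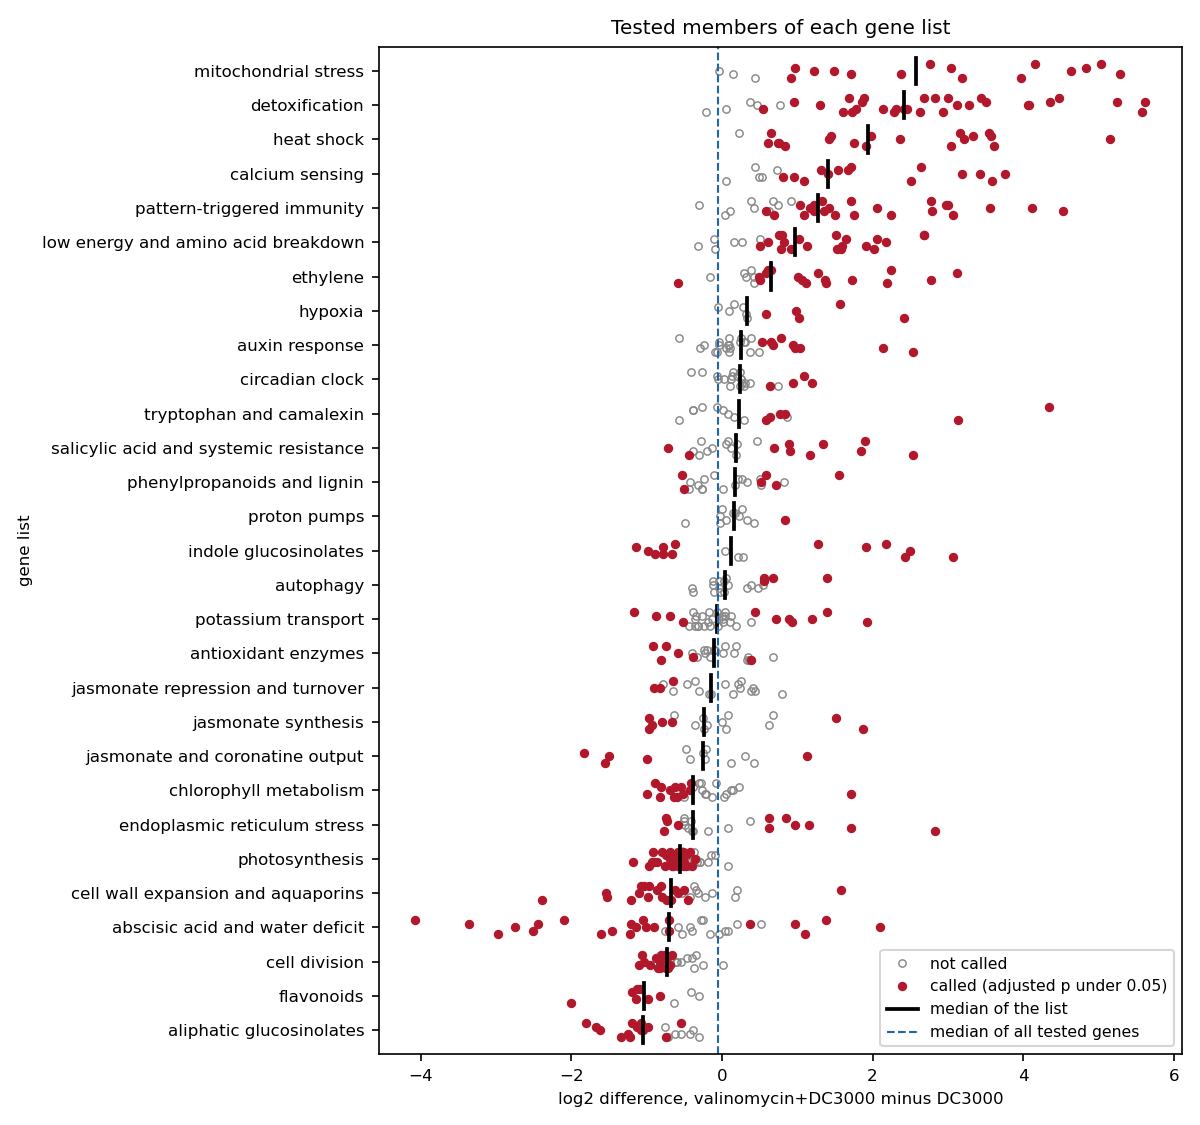
Log2 difference between valinomycin+DC3000 and DC3000 seedlings for the tested members of each gene list (x axis), with the lists ordered by their median (y axis). Filled points were called, open points were not, black bars are list medians and the dashed line is the median of all tested genes, -0.06. The mitochondrial stress list has the highest median, 2.58, and the list of aliphatic glucosinolates the lowest, -1.05.

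The 12 largest rises among called genes with groups that do not overlap and a higher mean of at least 9.88 FPKM were led by genes with no assigned function. AT2G41730 (chromosome 2, 17409370 to 17410334, plus strand), annotated as a calcium-binding site protein, stood at 403, 673 and 419 FPKM in valinomycin+DC3000 seedlings, against 5.67, 5.17 and 4.59 FPKM in DC3000 seedlings. Its difference was 6.31 ± 0.38 (limma adjusted p = 2.6e-07). AT5G24640 (chromosome 5, 8436352 to 8436895, plus strand), annotated as uncharacterized, stood at 106, 181 and 104 FPKM in valinomycin+DC3000 seedlings and 1.502, 0.198 and 0.965 FPKM in DC3000 seedlings, a difference of 6.13 ± 0.46 (limma adjusted p = 1.54e-06). All 3 libraries with valinomycin lay far above all 3 without, with replicate 2 the highest. DTX3 (AT2G04050, chromosome 2, 1337180 to 1339468, minus strand), an efflux carrier of the MATE family, reached 73.0, 111 and 75.6 FPKM with both agents and 0.531, 0.613 and 1.15 FPKM with the bacterium alone (5.62 ± 0.36, limma adjusted p = 3.59e-07). AT4G08555 (chromosome 4, 5448049 to 5448638, plus strand), also uncharacterized, gave 226, 532 and 264 against 4.59, 2.55 and 13.0 FPKM (5.604 ± 0.54, limma adjusted p = 1.23e-05). CYP81D8 (locus AT4G37370, chromosome 4, 17569740 to 17571743, minus strand), encoding a cytochrome P450 widely induced by stress and foreign compounds, gave 206, 405 and 196 against 3.19, 2.55 and 9.16 FPKM (5.58 ± 0.50, limma adjusted p = 6.22e-06). All 3 valinomycin+DC3000 libraries lay above all 3 DC3000 libraries, which the choice of these genes required and which 23.8% of all genes showed. The other 7 were AT2G07335 at 5.45, HSP23.5 at 5.29, ABCB4 at 5.24, AT2G18193 at 5.23, HSP17.6A at 5.15, UPOX at 5.03 and UGT74E2 at 4.83. AT2G18193 is annotated as a nucleotide triphosphate hydrolase of the P-loop class and AT2G07335 as a non-coding RNA. AT2G07335 overlaps AT2G20720 on the other strand, which rose as well (3.63, limma adjusted p = 4.45e-06), and reads of the pair cannot be told apart without strand. Over the 12 genes the ratio of group means ran from 33.0 to 146.5, and all 12 were also called higher in valinomycin against mock, where 38.5% of genes were.

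**Figure D2:**
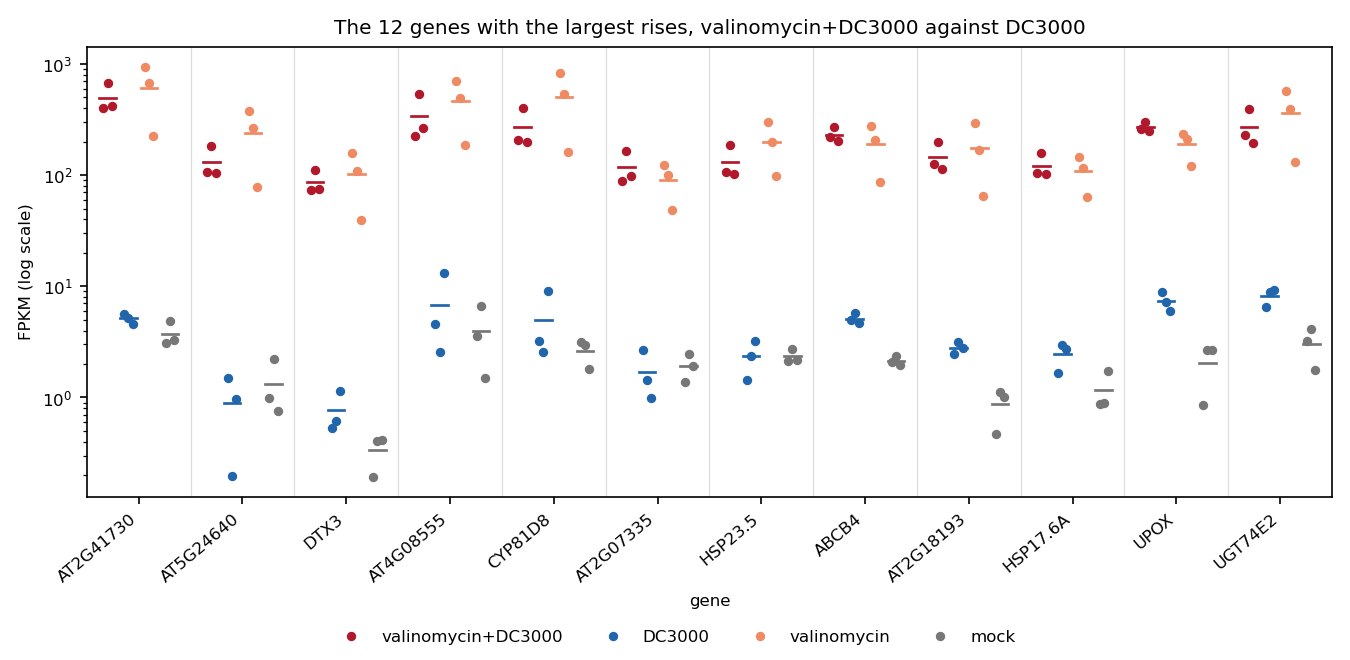
FPKM on a log scale (y axis) of the 12 genes with the largest rises (x axis) in each library of the 4 groups, with bars at the group means. For each gene the 3 valinomycin+DC3000 points lie above the 3 DC3000 points, and for AT2G41730 they run from 403 to 673 FPKM.

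The promoters of these genes are shown because many of them hold 1 motif. NAC factors that carry signals from the mitochondrion are known to bind the mitochondrial dysfunction motif, searched here as CTTGNNNNNCANG on both strands from 250 bases before to 50 bases after the annotated gene start. Sequences are from RefSeq, assembly TAIR10.1, 200 bases before to 20 after the start, 5′ to 3′ on the gene's strand, with the motif in capitals.
AT2G41730 (chr2:17409170-17409389, plus strand): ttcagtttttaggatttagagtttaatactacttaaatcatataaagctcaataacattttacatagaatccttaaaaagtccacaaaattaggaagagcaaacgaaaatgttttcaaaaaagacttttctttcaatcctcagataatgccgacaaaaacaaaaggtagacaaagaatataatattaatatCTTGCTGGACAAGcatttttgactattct
AT5G24640 (chr5:8436152-8436371, plus strand): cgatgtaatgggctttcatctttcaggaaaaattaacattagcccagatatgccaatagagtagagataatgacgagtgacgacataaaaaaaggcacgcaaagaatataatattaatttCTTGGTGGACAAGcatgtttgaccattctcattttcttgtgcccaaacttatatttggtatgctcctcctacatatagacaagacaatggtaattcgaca
DTX3 (chr2:1339449-1339668, minus strand): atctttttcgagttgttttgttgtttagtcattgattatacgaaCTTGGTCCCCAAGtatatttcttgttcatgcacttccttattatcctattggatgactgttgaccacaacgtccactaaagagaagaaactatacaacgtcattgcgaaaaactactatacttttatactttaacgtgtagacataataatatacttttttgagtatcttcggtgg
AT4G08555 (chr4:5447849-5448068, plus strand): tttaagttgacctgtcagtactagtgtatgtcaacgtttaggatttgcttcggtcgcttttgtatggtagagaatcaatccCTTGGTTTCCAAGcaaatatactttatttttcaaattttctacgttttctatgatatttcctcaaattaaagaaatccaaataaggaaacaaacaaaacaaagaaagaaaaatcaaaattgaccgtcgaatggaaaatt
CYP81D8 (chr4:17571724-17571943, minus strand): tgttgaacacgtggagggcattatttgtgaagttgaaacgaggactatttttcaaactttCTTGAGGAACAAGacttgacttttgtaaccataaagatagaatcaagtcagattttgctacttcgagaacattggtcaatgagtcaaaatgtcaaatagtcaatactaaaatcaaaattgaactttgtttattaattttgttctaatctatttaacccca
HSP23.5 (chr5:20890963-20891182, plus strand): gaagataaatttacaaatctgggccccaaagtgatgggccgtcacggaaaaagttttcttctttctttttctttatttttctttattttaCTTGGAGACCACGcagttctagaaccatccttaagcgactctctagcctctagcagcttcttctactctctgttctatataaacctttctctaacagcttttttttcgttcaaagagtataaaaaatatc
The motif was found in 9 of the 12 largest rises (75%), in 270 of the 17870 windows of all tested nuclear genes (1.51%) and in 0 of the 12 largest falls. It was present in 31 of 342 windows of genes that rose at least 4-fold (9.06%), in 65 of 2547 of all genes called higher (2.55%) and in 29 of 2403 of those called lower (1.21%). Its first base lay 9 bases before the start in AT2G41730, 80 in AT5G24640, 119 in AT4G08555, 140 in CYP81D8 and 110 in HSP23.5. DTX3 held 2 copies, 215 and 156 bases before the start, of which the second lies within the printed stretch. The 43 bases around the motif in AT2G41730 and AT5G24640 were identical at 40 positions, with 19 in 1 run. UPOX and AT2G18193 held it 51 and 90 bases before the start and UGT74E2 14 bases after it. ABCB4, AT2G07335 and HSP17.6A held no match in this window. A match of letters is a description of the sequence and does not show that a protein bound there.

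Most genes of mitochondrial stress rose. Of 18 tested members 15 were called higher and 0 lower, with a median difference of 2.58, while 14.1% of all genes were called higher at a median of -0.06. AOX1A (locus AT3G22370, chromosome 3, 7906521 to 7908746, plus strand), which encodes the alternative oxidase that passes electrons to oxygen without pumping protons, stood at 216, 327 and 194 FPKM in valinomycin+DC3000 seedlings and 13.3, 17.1 and 12.9 FPKM in DC3000 seedlings, a difference of 3.97 ± 0.32 (limma adjusted p = 3.25e-06). Its 3 valinomycin+DC3000 values all exceeded 190 FPKM and none of its DC3000 values exceeded 20 FPKM. UPOX (AT2G21640, chromosome 2, 9254378 to 9255743, plus strand), a mitochondrial protein induced by oxidative stress, gave 258, 301 and 251 FPKM with valinomycin and 8.80, 7.16 and 5.98 FPKM without (5.03 ± 0.27, limma adjusted p = 1.72e-07). Both small heat shock proteins of the mitochondrial matrix rose, HSP23.5 to 132 ± 47.6 FPKM against 2.35 ± 0.900 FPKM in DC3000 seedlings and HSP23.6 to 30.4 ± 10.8 against 0.218 ± 0.128 FPKM. UGT74E2, a glucosyltransferase that acts on indole-3-butyric acid, rose to 271 ± 106 FPKM, against 8.20 ± 1.43 FPKM in DC3000 seedlings. Among the members outside the naming rule, chosen after their values were seen, the regulator gene NAC013 stood at 63.1 ± 16.9 FPKM against 8.53 ± 3.02 FPKM (2.77 ± 0.35, limma adjusted p = 9.88e-05). NAC017, which encodes the related factor that is activated after translation, stood at 14.7 ± 0.376 FPKM against 10.6 ± 1.78 FPKM and missed the call (limma adjusted p = 0.0803). PUMP1, an uncoupling protein, stood at 36.3 ± 1.83 against 37.5 ± 2.56 FPKM (limma adjusted p = 0.831). The mitochondrial dysfunction motif was present in 9 of the 18 promoters (50%). The list was drawn from the signalling route in which this motif is known, so the share is a description and tests nothing. UPOX, HSP23.5 and UGT74E2 are counted both here and among the largest rises, so the shares are not separate observations. The mitochondrial genome moved less, with 0 of 72 tested loci higher, a median of -0.07 and 7 lower, where 13.5% of all genes were called lower. That count was 3 without DC3000 replicate 1 or valinomycin+DC3000 replicate 3, and 4 without DC3000 replicate 2 or 3 or valinomycin+DC3000 replicate 2.

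Detoxification genes rose to a like extent, with 30 of 35 tested members called higher, 0 lower and a median of 2.41. This list holds cytochromes P450, glutathione S-transferases (which attach glutathione to reactive molecules), glucosyltransferases and efflux pumps. ABCB4 (AT2G47000, chromosome 2, 19309643 to 19315343, minus strand), an auxin transporter of the ABC family, stood at 220.2, 269 and 204 FPKM in valinomycin+DC3000 seedlings, against 4.97, 5.73 and 4.64 FPKM in DC3000 seedlings (5.24 ± 0.30, limma adjusted p = 2.09e-07). Each valinomycin+DC3000 library lay above 200 FPKM and each DC3000 library below 6 FPKM. GSTU9 gave 41.4, 59.4 and 33.4 FPKM with valinomycin and 0.972, 1.19 and 0.840 FPKM without (4.48 ± 0.30, limma adjusted p = 4.98e-07). The smallest called rise of the list was 0.54, in the P450 gene CYP81D1, and the 5 members not called lay between -0.22 and 0.77. The element TGACG, bound by TGA factors that control many genes of this class, was found on either strand in 20 of the 35 promoters (57.1%) and in 4257 of 17870 overall (23.8%).

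Nearly the whole list of heat shock genes rose. Of 20 tested members 19 were called higher and 0 lower (median 1.95). HSP101 (AT1G74310, chromosome 1, 27936508 to 27940369, minus strand), a chaperone that dissolves protein aggregates, gave 37.7, 51.7 and 33.5 FPKM in valinomycin+DC3000 seedlings and 2.46, 3.57 and 3.36 FPKM in DC3000 seedlings (3.33 ± 0.27, limma adjusted p = 3.44e-06). HSFA2 (AT2G26150, chromosome 2, 11135624 to 11137792, plus strand), a transcription factor that sustains the heat response, gave 23.0, 33.4 and 18.6 FPKM with valinomycin and 0.550, 0.685 and 2.39 FPKM without (3.61 ± 0.40, limma adjusted p = 3.29e-05). In both genes the lowest valinomycin+DC3000 library exceeded the highest DC3000 library by over 7-fold. HSP101 overlaps AT1G74300 on the other strand, a gene of low level that also rose (0.865, limma adjusted p = 0.0118). The small heat shock genes HSP17.6A and HSP17.6II rose to 122 ± 32.6 and 40.2 ± 9.86 FPKM, against 2.44 ± 0.703 and 2.43 ± 0.685 FPKM in DC3000 seedlings, and the cytosolic chaperone HSP90-1 rose to 146 ± 30.0 against 12.04 ± 4.91 FPKM. The letters GAANNTTC, the core of the heat shock element, were present in 8 of the 20 promoters (40%), in 72 of 342 genes that rose at least 4-fold (21.1%) and in 2026 of 17870 overall (11.3%).

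Genes of endoplasmic reticulum stress changed in both directions. The list had 7 members higher and 4 lower of 21 tested, with a median of -0.38. Among all genes 14.1% were called higher and 13.5% lower. The sensor kinase IRE1A rose to 16.7 ± 0.542 FPKM against 8.10 ± 1.19 FPKM, and its target BZIP60 (AT1G42990, chromosome 1, 16135723 to 16137463, minus strand), a transcription factor, gave 102, 164 and 80.8 FPKM in valinomycin+DC3000 seedlings and 15.8, 15.1 and 13.3 FPKM in DC3000 seedlings (2.83 ± 0.34, limma adjusted p = 5.91e-05). The cochaperone ERDJ3A rose to 5.29 ± 1.21 against 0.946 ± 0.573 FPKM, and the stress-specific chaperone BIP3 to 1.48 ± 0.282 against 0.111 ± 0.0890 FPKM. The 4 members that fell, chosen after their values were seen where outside the naming rule, were the calreticulin gene CRT1B (-0.76 ± 0.20) and the disulfide isomerases PDIL2-1 (-0.74 ± 0.18), PDIL1-2 (-0.73 ± 0.21) and PDIL1-1 (-0.59 ± 0.19), with limma adjusted p of 0.0109, 0.00745, 0.0198 and 0.0354. The call of PDIL1-2 was lost without valinomycin+DC3000 replicate 2 or 3 or DC3000 replicate 2 (limma adjusted p up to 0.0777), and that of PDIL1-1 lost without valinomycin+DC3000 replicate 2 or 3 or DC3000 replicate 1, 2 or 3 (limma adjusted p up to 0.127). The main chaperones BIP1 and BIP2 were at 32.2 ± 3.00 and 25.4 ± 2.94 FPKM with both agents, against 43.1 ± 7.69 and 35.4 ± 8.47 FPKM, and were not called (limma adjusted p = 0.176 and 0.158). The count of members called higher was 4 without DC3000 replicate 1 or 3, without valinomycin+DC3000 replicate 1 or 2, or with a filter of a mean of 5 FPKM. The count called lower was 9 when only the 6 libraries were fitted, and 2 without DC3000 replicate 2 or without valinomycin+DC3000 replicate 2 or 3.

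Genes of pattern-triggered immunity were higher in seedlings that received valinomycin with the bacterium. Of 32 tested members 23 were called higher and 0 lower, with a median of 1.27. Among signalling components, the kinase gene MPK11 and the receptor-like kinase IOS1 were higher by 3.00 ± 0.40 and 2.79 ± 0.37 (limma adjusted p = 0.000137 and 0.000144), both chosen after their values were seen. WRKY33 (AT2G38470, chromosome 2, 16108235 to 16110766, plus strand), the transcription factor that controls camalexin synthesis, gave 90.7, 209 and 66.9 FPKM in valinomycin+DC3000 seedlings and 5.53, 6.5 and 15.2 FPKM in DC3000 seedlings (3.56 ± 0.49, limma adjusted p = 0.000177). WRKY22, downstream of flagellin perception, gave 30.9, 55.7 and 24.7 FPKM with valinomycin and 2.18, 3.04 and 5.12 FPKM without (3.07 ± 0.34, limma adjusted p = 3.5e-05). The groups of both genes are separate, with DC3000 replicate 3 the highest of its group. SYP122 (AT3G52400, chromosome 3, 19425632 to 19427230, minus strand), a syntaxin of the plasma membrane, rose to 85.6 ± 31.7 against 3.93 ± 1.43 FPKM, and PHI-1, a phosphate-induced secreted protein, to 54.1 ± 17.36 against 1.33 ± 0.404 FPKM. PHI-1 stood at 89.3 ± 58.0 FPKM in valinomycin seedlings and 65.4 ± 1.22 FPKM in mock seedlings, so DC3000 seedlings held the lowest level of the 4 groups. FRK1, a receptor kinase used as a reporter of flagellin responses, was low throughout, at 2.68, 4.77 and 2.48 FPKM with both agents and 0.665, 0.505 and 1.61 FPKM with the bacterium (1.16 ± 0.28, limma adjusted p = 0.00746). WRKY40, a repressor that responds early, was already high in DC3000 seedlings, at 158, 192 and 149.7 FPKM in valinomycin+DC3000 and 145, 100.3 and 66.0 FPKM in DC3000 seedlings, with no call (0.74 ± 0.37, limma adjusted p = 0.151).

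Calcium sensing and ethylene genes moved with them. Of 19 tested calcium genes 14 were called higher and 0 lower (median 1.41), where 14.1% of all genes were called higher and 13.5% lower. The calmodulin-like genes CML12, CML37 and CML40 rose to 409 ± 209, 29.1 ± 21.3 and 37.5 ± 22.3 FPKM, against 28.7 ± 13.2, 1.48 ± 1.74 and 3.04 ± 1.70 FPKM in DC3000 seedlings. TCH4, a touch-induced cell wall enzyme, rose to 93.7 ± 39.8 against 7.53 ± 2.40 FPKM. CML12 and CML40 each overlap a gene of the other strand that also rose, AT2G41105 by 4.05 and AT3G01840 by 1.69. Of 23 tested ethylene genes 16 were called higher and 1 lower (median 0.66), and 10 higher without valinomycin+DC3000 replicate 2. ACS2 and ACS6, enzymes that make the ethylene precursor, rose to 8.24 ± 3.86 and 24.4 ± 10.9 FPKM, against 0.954 ± 0.522 and 2.72 ± 1.59 FPKM. The response factor ERF5 gave 25.5, 37.1 and 11.6 FPKM with both agents and 1.11, 1.36 and 2.88 FPKM with the bacterium alone (3.12 ± 0.34, limma adjusted p = 3.16e-05), and ERF6 rose to 11.8 ± 2.98 against 1.67 ± 0.176 FPKM. The lower member was the oxidase gene ACO3 (-0.58 ± 0.17, limma adjusted p = 0.0211), chosen after its values were seen, whose call was lost without valinomycin+DC3000 replicate 1 or 2 or DC3000 replicate 2 (limma adjusted p up to 0.109).

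Salicylic acid genes were mixed. Of 21 tested members 8 were called higher and 2 lower, with a median of 0.19. Over all genes 14.1% were called higher and 13.5% lower, so the share called lower was not raised in this list. Genes for enzymes that add glucose to salicylic acid or isoleucic acid were among those that rose: UGT76B1 gave 49.4, 63.1 and 41.3 FPKM in valinomycin+DC3000 seedlings and 5.95, 11.1 and 7.18 FPKM in DC3000 seedlings (2.54 ± 0.39, limma adjusted p = 0.000413), and UGT74F2 rose to 133 ± 61.0 against 32.9 ± 3.29 FPKM. CBP60G, a transcription factor that promotes salicylic acid synthesis, rose to 13.6 ± 5.74 against 2.90 ± 0.581 FPKM. ROXY19, a glutaredoxin, rose to 13.5 ± 7.62 against 4.37 ± 1.46 FPKM (limma adjusted p = 0.0222), a call lost without valinomycin+DC3000 replicate 2 or DC3000 replicate 1 or 2 (limma adjusted p up to 0.111). ICS1 (AT1G74710, chromosome 1, 28070295 to 28074177, plus strand), the enzyme of the main route to salicylic acid, gave 2.13, 1.55 and 2.04 FPKM with valinomycin and 3.18, 2.71 and 2.93 FPKM without (-0.44 ± 0.15, limma adjusted p = 0.0449). Its groups did not overlap, which 26.1% of all genes showed downward. Its call was lost without any 1 of the 6 libraries (limma adjusted p up to 0.187). The second lower member was EPS1, of the same route, chosen after its values were seen (-0.71 ± 0.19, limma adjusted p = 0.0125), and its call was lost without DC3000 replicate 1 or 2 (limma adjusted p up to 0.0646).

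Some camalexin genes rose, while genes of other routes from tryptophan were split. Of 16 tested members of the tryptophan and camalexin list 6 were higher and 0 lower (median 0.22), and 4 higher without DC3000 replicate 3 or valinomycin+DC3000 replicate 2. PAD3 (AT3G26830, chromosome 3, 9887917 to 9889791, plus strand), the P450 of the last step to camalexin, gave 32.0, 59.3 and 26.5 FPKM in valinomycin+DC3000 seedlings and 0.722, 0.744 and 1.21 FPKM in DC3000 seedlings (4.34 ± 0.29, limma adjusted p = 4.75e-07). FOX1, an oxidase that makes cyanogenic indole compounds, gave 14.4, 24.9 and 12.7 FPKM with valinomycin and 0.501, 0.668 and 2.26 FPKM without (3.13 ± 0.35, limma adjusted p = 3.51e-05). Each valinomycin+DC3000 library exceeded 12 FPKM in both genes and no DC3000 library exceeded 3 FPKM. The shared upstream enzymes CYP79B2 and CYP79B3 stood at 37.1 ± 5.70 and 126 ± 20.4 FPKM, against 45.7 ± 12.2 and 197 ± 73.8 FPKM, with no call (limma adjusted p = 0.459 and 0.084). Indole glucosinolate genes split, with 6 higher and 7 lower of 16 tested (median 0.12). Those that rose included IGMT2 and CYP81F2, which modify these compounds, and the transporter gene PEN3 and myrosinase gene PEN2 of immunity, which rose by 3.07 ± 0.38, 2.50 ± 0.30, 2.43 ± 0.31 and 2.17 ± 0.28, and the regulator MYB51 by 1.92 ± 0.19. IGMT2 has a near-identical copy, AT1G21110, between which the counting of reads may be split. Those that fell included the synthesis regulator MYB34 and the enzyme CYP81F4, at 27.9 ± 4.04 and 18.9 ± 3.69 FPKM against 58.9 ± 21.7 and 42.8 ± 4.67 FPKM (limma adjusted p = 0.0231 and 0.00589). MYB51, MYB34 and CYP81F4 were chosen after their values were seen, and the call of MYB34 was lost without valinomycin+DC3000 replicate 2 or DC3000 replicate 1 or 2 (limma adjusted p up to 0.104). Without DC3000 replicate 2 the number that fell was 2, without DC3000 replicate 1 it was 3 and without valinomycin+DC3000 replicate 3 it was 4.

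Auxin response genes had 9 of 29 tested members higher, 0 lower and a median of 0.25, where 14.1% of all genes were called higher. GH3.2 and GH3.3, enzymes that join auxin to amino acids, rose to 20.05 ± 7.90 and 59.1 ± 17.7 FPKM, against 2.47 ± 0.319 and 12.3 ± 0.982 FPKM in DC3000 seedlings. The early response genes IAA2 and IAA16 rose to 169 ± 13.2 and 130.2 ± 15.8 against 82.0 ± 7.62 and 65.9 ± 5.83 FPKM. The count was 5 without DC3000 replicate 3 or valinomycin+DC3000 replicate 1 and 6 without DC3000 replicate 1 or 2 or valinomycin+DC3000 replicate 3.

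Most genes that mark low energy and the breakdown of amino acids rose. Of 26 tested members 20 were called higher and 0 lower (median 0.97). DIN10 (AT5G20250, chromosome 5, 6833564 to 6836862, plus strand), a raffinose synthase family gene induced in the dark, gave 281, 353 and 264 FPKM in valinomycin+DC3000 seedlings and 32.2, 38.2 and 76.1 FPKM in DC3000 seedlings (2.68 ± 0.30, limma adjusted p = 3.91e-05). ERD5, the mitochondrial proline dehydrogenase, gave 117, 139.5 and 92.5 FPKM with valinomycin and 15.3, 15.7 and 20.6 FPKM without (2.68 ± 0.37, limma adjusted p = 0.000166). The groups of both genes were far apart. MCCA, which breaks down leucine, rose to 69.3 ± 8.93 against 16.2 ± 4.298 FPKM, and the beta-glucosidase gene BGLU30 to 7.13 ± 4.04 against 0.799 ± 0.905 FPKM. Of 11 tested hypoxia genes 5 were higher and 0 lower (median 0.33), and 3 without DC3000 replicate 3 or valinomycin+DC3000 replicate 1 or 2. The haemoglobin gene HB1 rose to 9.69 ± 0.889 against 0.992 ± 0.161 FPKM, and the transcription factor LBD41 to 11.0 ± 4.41 against 2.88 ± 0.0698 FPKM. GDH1, glutamate dehydrogenase, and SUS1, sucrose synthase, rose by 1.03 ± 0.19 and 0.98 ± 0.31 (limma adjusted p = 0.00133 and 0.0276), and the call of SUS1 was lost without valinomycin+DC3000 replicate 1 or 2 or DC3000 replicate 1 or 3 (limma adjusted p up to 0.112). The fifth was the decarboxylase PDC2, chosen after its values were seen (0.58 ± 0.16, limma adjusted p = 0.0148), a call lost without valinomycin+DC3000 replicate 1 or 2 or DC3000 replicate 3 (limma adjusted p up to 0.0791). The fermentation enzyme ADH1 stood at 3.94 ± 0.825 against 2.91 ± 0.517 FPKM, with no call (limma adjusted p = 0.24). Autophagy genes had 4 of 20 higher and 0 lower (median 0.04), near the 14.1% of all genes called higher, and 2 higher without DC3000 replicate 1 or valinomycin+DC3000 replicate 2. They were ATG8E at 178 ± 38.3 against 66.0 ± 4.90 FPKM, the cargo receptor NBR1 at 92.3 ± 13.6 against 57.1 ± 1.62 FPKM, and ATG18A and ATG18G, higher by 0.56 and 0.56 (limma adjusted p = 0.015 and 0.0238). The call of ATG18A was lost without valinomycin+DC3000 replicate 2 or DC3000 replicate 1 (limma adjusted p up to 0.0853), and that of ATG18G lost without valinomycin+DC3000 replicate 1, 2 or 3 or DC3000 replicate 1 or 3 (limma adjusted p up to 0.0814).

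The 12 largest falls included several LEA and cold-regulated genes. LEA proteins protect other proteins and membranes in drying cells. AT3G15670 (chromosome 3, 5309886 to 5310988, minus strand), of the LEA family, gave 0.0917, 0.186 and 0.204 FPKM in valinomycin+DC3000 seedlings and 0.354, 122 and 47.3 FPKM in DC3000 seedlings (-4.11 ± 1.24, limma adjusted p = 0.0245), a call lost without valinomycin+DC3000 replicate 1, 2 or 3 or DC3000 replicate 2 or 3 (limma adjusted p up to 0.116). LEA7 (AT1G52690, chromosome 1, 19619724 to 19621534, plus strand) gave 0.236, 1.19 and 0.779 FPKM with valinomycin and 2.32, 134 and 49.8 FPKM without (-4.07 ± 1.14, limma adjusted p = 0.0171), a call lost without valinomycin+DC3000 replicate 1 or DC3000 replicate 2 or 3 (limma adjusted p up to 0.0839). In both genes the DC3000 libraries themselves differed widely, with replicate 1 far below replicates 2 and 3. LEA4-5 (AT5G06760, chromosome 5, 2089445 to 2090430, minus strand) gave 0.673, 1.02 and 1.12 FPKM with both agents and 7.96, 40.9 and 19.6 FPKM with the bacterium (-3.36 ± 0.61, limma adjusted p = 0.00132), and AT3G02480, of the LEA family, 2.53, 8.32 and 3.01 against 16.6, 220.4 and 163 FPKM (-4.08 ± 0.92, limma adjusted p = 0.00517). The cold-regulated chloroplast protein gene COR15A (AT2G42540, chromosome 2, 17710441 to 17712330, minus strand) gave 147, 130.4 and 125 FPKM with valinomycin and 1176, 1235 and 510.0 FPKM without (-2.75 ± 0.31, limma adjusted p = 4.11e-05). Its 3 DC3000 libraries all exceeded 500 FPKM, and no valinomycin+DC3000 library exceeded 150 FPKM. Its neighbour COR15B fell to 48.2 ± 4.67 FPKM against 292 ± 133 FPKM, and KIN1, a cold-induced protein gene, to 14.3 ± 1.03 against 124 ± 41.9 FPKM. AT4G30650, annotated as responsive to low temperature and salt, fell to 12.01 ± 3.34 against 61.1 ± 9.53 FPKM. The remaining 4 were the lipid transfer protein gene LTP3 (-3.01 ± 0.44), CER1 (-2.56 ± 0.23), the expansin EXPA16 (-2.39 ± 0.20) and MLP423 (-2.24 ± 0.32), a protein related to major latex protein. CER1, an enzyme that makes the alkanes of cuticular wax, gave 4.197, 3.73 and 4.37 FPKM with both agents and 31.1, 36.0 and 21.7 FPKM with the bacterium alone. Over the 12 genes the DC3000 mean exceeded the valinomycin+DC3000 mean 5.08 to 353-fold. Their groups did not overlap, which the choice of these genes required and which 26.1% of all genes showed downward.

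**Figure D3:**
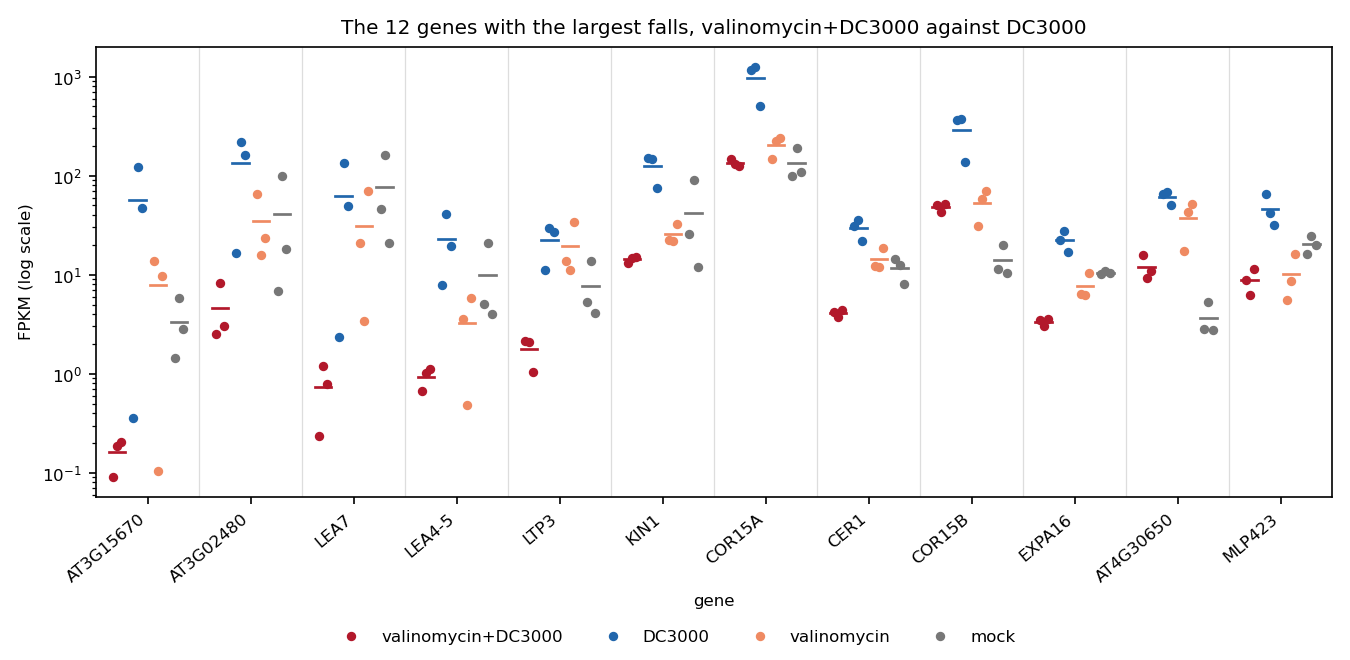
FPKM on a log scale (y axis) of the 12 genes with the largest falls (x axis) in each library of the 4 groups, with bars at the group means. For each gene the 3 valinomycin+DC3000 points lie below the 3 DC3000 points, which the choice of genes required. The DC3000 points of AT3G15670, LEA7 and AT3G02480 are spread over the widest range.

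The promoters of a pair of these genes are shown for the abscisic acid response element, searched as ACGTGNC on both strands and here in capitals, in the same window and from the same RefSeq assembly.
LEA7 (chr1:19619524-19619743, plus strand): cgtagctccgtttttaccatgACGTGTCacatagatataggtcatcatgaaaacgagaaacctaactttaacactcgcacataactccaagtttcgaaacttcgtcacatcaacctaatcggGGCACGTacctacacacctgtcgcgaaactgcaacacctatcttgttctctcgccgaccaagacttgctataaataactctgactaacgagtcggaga
LEA4-5 (chr5:2090411-2090630, minus strand): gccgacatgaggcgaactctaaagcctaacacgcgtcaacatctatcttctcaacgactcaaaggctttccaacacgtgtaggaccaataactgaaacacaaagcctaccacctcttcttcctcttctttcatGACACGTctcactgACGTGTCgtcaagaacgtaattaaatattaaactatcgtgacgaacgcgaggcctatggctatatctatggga
The element was found in 5 of the 12 largest falls (41.7%), in 8 of the 21 genes that fell at least 4-fold (38.1%), in 1 of the 12 largest rises (8.33%) and in 2078 of 17870 promoters overall (11.6%). LEA7 held 3 copies, 217, 179 and 78 bases before the start, of which the last 2 are printed, and LEA4-5 held 2, at 67 and 53 bases. The drought and cold response core CCGAC was present in 7 of the 12 largest falls (58.3%), in 2 of the 12 largest rises (16.7%) and in 2977 promoters overall (16.7%). Over all genes called lower, ACGTGNC was in 338 of 2403 windows (14.1%) and CCGAC in 384 (16%).

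In the abscisic acid and water deficit list, 17 of 35 tested genes were called lower and 5 higher, with a median of -0.70. The number lower was 8 without DC3000 replicate 2, and 11 without DC3000 replicate 1 or without valinomycin+DC3000 replicate 1. RD29B, a classical abscisic acid reporter, gave 0.0353, 0.138 and 0.227 FPKM in valinomycin+DC3000 seedlings and 0.721, 21.6 and 5.76 FPKM in DC3000 seedlings (-2.50 ± 0.75, limma adjusted p = 0.0237). Without DC3000 replicate 2 its difference was -1.59, and the call was lost without valinomycin+DC3000 replicate 1 or 2 or DC3000 replicate 2 or 3 (limma adjusted p up to 0.112). Among highly expressed members outside the naming rule, chosen after their values were seen, RD22 stood at 118 ± 12.4 FPKM against 264 ± 37.1 FPKM, ERD10 at 98.97, 119 and 84.3 against 394, 368 and 198 FPKM and KIN2 at 463 ± 42.4 against 1311 ± 344 FPKM, called with a limma adjusted p of 7.75e-05, 0.00162 and 0.000562. The 5 that rose, also outside the rule, act in turnover, perception and transcription. They were the abscisic acid hydroxylases CYP707A3 at 12.7 ± 4.37 against 2.11 ± 0.413 FPKM and CYP707A1 at 18.1 ± 3.36 against 7.78 ± 0.595 FPKM, the receptors PYL5 (1.38 ± 0.30) and PYL4 (0.98 ± 0.21) and the factor ABF4 (0.37 ± 0.13), with a limma adjusted p of 8.46e-05, 0.00231, 0.00404, 0.00362 and 0.0491. The call of ABF4 was lost without any 1 of the 6 libraries (limma adjusted p up to 0.162). NCED3, which makes the first dedicated step of abscisic acid synthesis, stood at 6.00 ± 0.0934 against 7.29 ± 3.31 FPKM, with no call (limma adjusted p = 0.697). The element ACGTGNC was present in 14 of the 35 promoters (40%).

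Most jasmonate genes were not called. In jasmonate synthesis 5 of 17 tested members were lower and 2 higher (median -0.24). For this list and the next ones, 13.5% of all genes were called lower and 14.1% higher. AOC2 (AT3G25770, chromosome 3, 9406669 to 9408071, plus strand), allene oxide cyclase, gave 301, 259 and 268 FPKM in valinomycin+DC3000 seedlings and 608, 642 and 403 FPKM in DC3000 seedlings (-0.97 ± 0.18, limma adjusted p = 0.00149). In valinomycin and mock seedlings AOC2 averaged 46.8 ± 2.60 and 2.15 ± 0.565 FPKM. AOC4 fell to 36.5 ± 6.78 against 72.3 ± 15.2 FPKM. The other 3, chosen after their values were seen, were AOS (-0.92 ± 0.20, limma adjusted p = 0.00337), AOC1 (-0.79 ± 0.28, limma adjusted p = 0.0477) and LOX2 (-0.66 ± 0.23, limma adjusted p = 0.0428). The call of AOC1 was lost without valinomycin+DC3000 replicate 1, 2 or 3 or DC3000 replicate 1 or 2 (limma adjusted p up to 0.189), and that of LOX2 lost without valinomycin+DC3000 replicate 1, 2 or 3 or DC3000 replicate 1 or 2 (limma adjusted p up to 0.167). The count was 3 without DC3000 replicate 1 or 2, without any 1 of the valinomycin+DC3000 libraries, or with nuclear genes scaled to 1 total. The lipase PLIP2 and the oxidase ACX1 rose to 15.0 ± 2.117 and 205 ± 41.8 FPKM, against 3.37 ± 0.832 and 70.5 ± 11.6 FPKM. Of 19 tested genes of jasmonate repression and turnover 3 were lower and 0 higher (median -0.14), a share near the 13.5% of all genes called lower. When only the 6 libraries were fitted, 3 were higher. The 3 called lower in the main fit were JAZ10 at 138, 101 and 118 against 274, 284 and 139 FPKM (-0.90 ± 0.28, limma adjusted p = 0.0267), JAZ3 (-0.83 ± 0.21) and JAZ6 (-0.65 ± 0.23). They encode repressors of jasmonate responses, and all 3 calls were lost without DC3000 replicate 2 (limma adjusted p = 0.114, 0.062 and 0.194), among other libraries. The count ran from 0 without DC3000 replicate 1 or 2 or valinomycin+DC3000 replicate 2, through 1 and 2 without valinomycin+DC3000 replicates 3 and 1, to 6 without DC3000 replicate 3 or with the replicate block. Of 13 tested output genes 4 were lower and 1 higher (median -0.25). VSP2 (AT5G24770, chromosome 5, 8500468 to 8502224, minus strand), a vegetative storage protein, gave 125, 80.6 and 126 FPKM with both agents and 469, 547 and 231 FPKM with the bacterium alone (-1.84 ± 0.31, limma adjusted p = 0.000808), and its neighbour VSP1 fell to 44.6 ± 8.13 against 132 ± 49.6 FPKM. The coronatine-induced lyase CORI3 fell to 86.8 ± 11.0 against 264 ± 74.8 FPKM and the chlorophyllase CLH1 to 512 ± 104 against 1032 ± 287 FPKM. ERF1, of the ethylene branch, rose to 2.75 ± 0.950 against 0.693 ± 0.263 FPKM.

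Genes of aliphatic glucosinolates, defence compounds made from methionine, had the lowest median of the lists. Of 21 tested members 14 were lower and 0 higher, with a median of -1.05. GSTU20 (AT1G78370, chromosome 1, 29484120 to 29485389, minus strand), a glutathione S-transferase of the core pathway, gave 34.3, 24.8 and 22.01 FPKM in valinomycin+DC3000 seedlings and 106, 118 and 69.0 FPKM in DC3000 seedlings (-1.81 ± 0.32, limma adjusted p = 0.00104). The isomerase subunits IPMI2 and IPMI1 of chain elongation fell to 4.45 ± 1.11 and 6.51 ± 2.05 FPKM, against 16.7 ± 4.85 and 22.6 ± 8.32 FPKM, and the plastid transporter BAT5 to 3.76 ± 0.740 against 11.4 ± 4.003 FPKM. For these 4 genes the groups did not overlap, which 26.1% of all genes showed downward. With genes under a mean of 5 FPKM left out, 9 members were lower, of fewer tested. MYB28, the main regulator, stood at 12.2 ± 0.672 against 15.5 ± 3.70 FPKM, with no call (limma adjusted p = 0.396). Flavonoid genes fell as well, with 7 of 10 tested members lower, 0 higher and a median of -1.04, and 4 lower with that filter. Chalcone synthase, TT4 (AT5G13930, chromosome 5, 4488476 to 4490264, plus strand), gave 6.62, 3.04 and 8.55 FPKM with valinomycin and 31.7, 43.5 and 12.1 FPKM without (-2.01 ± 0.38, limma adjusted p = 0.0018). Its lowest DC3000 value, in replicate 3, lay above the highest valinomycin+DC3000 value. The regulators MYB75 and EGL3 fell to 5.25 ± 0.787 and 0.645 ± 0.148 FPKM, against 13.4 ± 3.11 and 2.60 ± 0.304 FPKM, and the rhamnosyltransferase UGT78D1 to 12.8 ± 1.33 against 30.8 ± 10.4 FPKM. Phenylpropanoid and lignin genes had 4 higher and 2 lower of 21 tested (median 0.18), where 14.1% of all genes were called higher and 13.5% lower. C4H, cinnamate hydroxylase, rose to 153 ± 29.0 against 51.0 ± 5.15 FPKM. PAL2 and CYP98A3 rose by 0.72 ± 0.19 and 0.59 ± 0.19 and the laccase LAC4 fell by 0.53 ± 0.19, with limma adjusted p of 0.0113, 0.0327 and 0.0465. The call of PAL2 was lost without valinomycin+DC3000 replicate 2 (limma adjusted p up to 0.0625), that of CYP98A3 lost without valinomycin+DC3000 replicate 1 or 2 or DC3000 replicate 1 or 2 (limma adjusted p up to 0.176), and that of LAC4 lost without any 1 of the 6 libraries (limma adjusted p up to 0.133). Without valinomycin+DC3000 replicate 2 the difference of CYP98A3 was 0.35, and AT2G40880, which overlaps it on the other strand, rose by 0.88. The others, chosen after their values were seen, were PAL3 (0.52 ± 0.17) and CAD4 (-0.50 ± 0.14), with limma adjusted p of 0.0328 and 0.0141. The call of PAL3 was lost without valinomycin+DC3000 replicate 1, 2 or 3 or DC3000 replicate 1 or 2 (limma adjusted p up to 0.112), and that of CAD4 lost without valinomycin+DC3000 replicate 2 or 3 (limma adjusted p up to 0.0537). The higher count was 1 without valinomycin+DC3000 replicate 2, and 2 without DC3000 replicate 1 or 2 or valinomycin+DC3000 replicate 1. The lower count was 0 without valinomycin+DC3000 replicate 2 or 3, and 1 without DC3000 replicate 1 or 2 or valinomycin+DC3000 replicate 1.

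Photosynthesis genes of the nucleus fell slightly and widely. Of 56 tested members 44 were lower and 0 higher, with a median of -0.56, where 13.5% of all genes were called lower. LHCB2.3 (AT3G27690, chromosome 3, 10255906 to 10257489, plus strand), a light-harvesting protein of photosystem II, gave 73.0, 61.4 and 104 FPKM in valinomycin+DC3000 seedlings and 174, 165 and 195 FPKM in DC3000 seedlings (-1.19 ± 0.20, limma adjusted p = 0.000808). PSAG and PSAE-1, subunits of photosystem I, fell to 254 ± 21.8 and 593 ± 33.3 FPKM, against 487 ± 112 and 1126 ± 29.4 FPKM. PSAE-1 overlaps AT4G28755 on the other strand, which fell as well (-0.926, limma adjusted p = 0.000682). Reads of that pair cannot be told apart without strand. LHCB1.2 fell to 1701 ± 324 against 3287 ± 314 FPKM, and its near-identical copy AT1G29930 fell too (-0.51, limma adjusted p = 0.0196, a call lost without valinomycin+DC3000 replicate 2 or DC3000 replicate 1 or 2 (limma adjusted p up to 0.084)), so reads may be split between them. In LHCB2.3, PSAG, PSAE-1 and LHCB1.2 the groups stayed apart, which 26.1% of all genes showed downward. Chlorophyll genes had 12 of 27 lower and 1 higher (median -0.38), where 14.1% of all genes were called higher. PORC, the light-dependent reductase, fell to 33.1 ± 4.90 against 62.3 ± 10.4 FPKM and the divinyl reductase DVR to 15.5 ± 2.56 against 28.1 ± 3.63 FPKM (limma adjusted p = 0.0136), a call lost without valinomycin+DC3000 replicate 2 or DC3000 replicate 1 (limma adjusted p up to 0.0638). HEMA2, the glutamyl-tRNA reductase of non-green tissue, rose to 41.2 ± 15.6 against 11.5 ± 2.02 FPKM. The number lower was 4 without DC3000 replicate 1 or valinomycin+DC3000 replicate 2, 5 without DC3000 replicate 2 and 6 without valinomycin+DC3000 replicate 1. In the chloroplast genome 26 of 105 loci were lower and 4 higher (median -0.24), where 13.5% of all genes were lower and 14.1% higher. ATCG00440, ATCG00380 and ATCG00050 fell by 1.23, 1.13 and 1.25, and ATCG00880 rose by 2.15 ± 0.54. The 4 higher were 1 without DC3000 replicate 2 or valinomycin+DC3000 replicate 1 or 3. Some loci of this genome had nearly the same values, so the counts of loci are not counts of separate observations. ATCG00890 and ATCG01250, both among the higher, averaged 78.2 and 75.9 FPKM against 46.7 and 45.9 FPKM in DC3000 seedlings. ATCG00900 and ATCG01240, and ATCG00905 and ATCG01230, were like pairs among the lower. Copies were not looked for among organelle loci. The chloroplast share was 37.6%, 31.1% and 36.5% in the valinomycin+DC3000 libraries and 34.5%, 39.0% and 39.8% in the DC3000 libraries. These shares overlapped, and their part in the differences was not tested.

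Many genes of cell expansion and cell division fell. Of 29 tested expansin, wall enzyme and aquaporin genes 18 were lower and 1 higher (median -0.68), and 12 lower without DC3000 replicate 2. EXPA16 (AT3G55500, chromosome 3, 20574752 to 20576249, minus strand), a wall-loosening expansin, gave 3.48, 3.01 and 3.55 FPKM in valinomycin+DC3000 seedlings and 22.2, 27.6 and 16.8 FPKM in DC3000 seedlings (-2.39 ± 0.20, limma adjusted p = 3.44e-06). The water channels TIP1;1 of the vacuole and PIP2;5 of the plasma membrane fell to 104 ± 10.0 and 3.19 ± 0.236 FPKM, against 306 ± 64.2 and 11.2 ± 2.095 FPKM. XTH24, a wall-modifying enzyme, rose to 278 ± 19.6 against 92.7 ± 10.4 FPKM. Of 25 tested cell division genes 16 were lower and 0 higher (median -0.72), with 7 lower without valinomycin+DC3000 replicate 2, 8 without DC3000 replicate 1 and 4 when genes under a mean of 5 FPKM were left out. The syntaxin KN (KNOLLE), which builds the cell plate, fell to 8.89 ± 1.61 against 19.3 ± 3.95 FPKM and the cyclin CYCA2;3 to 4.92 ± 1.53 against 10.3 ± 1.65 FPKM. The mitotic cyclins CYCB1;4 and CYCB2;2 were lower by 1.062 and 1.104, from low levels. Markers of meristem, epidermis and trichomes were mixed: 5 of 10 were lower and 2 higher (median -0.18). Over all genes 13.5% were called lower and 14.1% higher. PDF1, an epidermal marker, fell to 39.9 ± 6.17 against 83.4 ± 18.7 FPKM, while ATML1, its regulator, rose to 16.8 ± 0.819 against 10.4 ± 0.574 FPKM. STM fell and TTG1 rose (limma adjusted p = 0.0171 and 0.0146, and 0.0966 and 0.074 without valinomycin+DC3000 replicate 2, with both calls lost also without DC3000 replicate 1). GL1, KNAT1 and CER6, chosen after their values were seen, were lower by 0.52, 0.50 and 0.48 (limma adjusted p = 0.03, 0.0377 and 0.0285, up to 0.123, 0.14 and 0.135 with 1 library left out). The number lower was 1 without DC3000 replicate 1 or 2 or valinomycin+DC3000 replicate 2, and 2 without valinomycin+DC3000 replicate 1 or 3. The number higher was 1 without DC3000 replicate 1 or valinomycin+DC3000 replicate 2. Their part in the falls of wall, wax and cell division genes was not tested. Among vessel markers the proteases XCP1 and XCP2 fell, by 1.09 and 0.70, and 9 of 11 phloem and xylem markers were not called. The 5 tested root markers lay between -0.43 and 0.30, with no call.

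Genes for potassium and proton transport, the ions that valinomycin and the membrane potential link, had medians near that of all genes. Of 36 tested potassium genes 7 were higher and 4 lower, with a median of -0.06, where 14.1% of all genes were called higher and 13.5% lower. CHX17, a cation exchanger, gave 4.18, 8.56 and 3.46 FPKM in valinomycin+DC3000 seedlings and 0.508, 0.580 and 0.694 FPKM in DC3000 seedlings (1.93 ± 0.30, limma adjusted p = 0.000415). GORK (AT5G37500, chromosome 5, 14889245 to 14895233, minus strand), the outward channel that releases potassium from cells, gave 4.80, 5.18 and 3.79 FPKM with valinomycin and 1.49, 1.33 and 1.47 FPKM without (1.19 ± 0.30, limma adjusted p = 0.00917). KAT1, an inward channel of guard cells, gave 2.62, 2.79 and 2.86 FPKM with valinomycin and 10.3, 8.22 and 4.69 FPKM without (-1.16 ± 0.26, limma adjusted p = 0.00489). The groups of these 3 genes were separate, as were those of 23.8% of all genes upward and 26.1% downward. KAT1 was the only 1 of 8 tested guard cell markers called. CBL1, a calcium sensor that activates potassium uptake, rose to 27.2 ± 5.17 against 9.67 ± 0.642 FPKM. The other 3 that fell, chosen after their values were seen, were AKT2 (-0.87 ± 0.23), NHX2 (-0.69 ± 0.21) and KUP2 (-0.51 ± 0.15), with limma adjusted p of 0.0125, 0.0225 and 0.0192, up to 0.0591, 0.0781 and 0.0885 with 1 library left out. The lower count was 1 without DC3000 replicate 1 or 2 or valinomycin+DC3000 replicate 2, and 2 with genes under a mean of 5 FPKM left out. Of 12 tested proton pump genes 1 was higher, AHA2 at 62.2 ± 7.93 against 34.2 ± 1.60 FPKM (0.84 ± 0.16, limma adjusted p = 0.00179), chosen after its values were seen, and 0 were lower (median 0.16). With either rescaling of the libraries 3 pump genes were higher. AHA1, a pump of the plasma membrane, stood at 141 ± 8.51 against 143 ± 15.2 FPKM (limma adjusted p = 0.924), and the vacuolar pyrophosphatase AVP1 at 64.5 ± 2.92 against 51.1 ± 6.11 FPKM (limma adjusted p = 0.0884). Most genes of antioxidant enzymes were not called. Of 23 tested 5 were lower and 1 higher (median -0.11), where 13.5% of all genes were called lower and 14.1% higher. DHAR1, dehydroascorbate reductase, fell to 381 ± 49.2 against 730.3 ± 189.9 FPKM. The plastid superoxide dismutases FSD3 and FSD2 and the thylakoid protein APX4 fell by 0.81, 0.74 and 0.59, with limma adjusted p of 0.0174, 0.0111 and 0.0149. The call of FSD3 was lost without valinomycin+DC3000 replicate 2 or DC3000 replicate 1 (limma adjusted p up to 0.0941), that of FSD2 lost without valinomycin+DC3000 replicate 2 (limma adjusted p up to 0.0581), and that of APX4 lost without valinomycin+DC3000 replicate 1 or 2 or DC3000 replicate 1 (limma adjusted p up to 0.0738). The others, chosen after their values were seen, were TAPX (-0.39 ± 0.14, limma adjusted p = 0.044, a call lost without valinomycin+DC3000 replicate 1, 2 or 3 or DC3000 replicate 1 or 2 (limma adjusted p up to 0.161)) and, upward, APX1 (0.39 ± 0.13, limma adjusted p = 0.0363). The lower count was 1 without valinomycin+DC3000 replicate 2, 2 without DC3000 replicate 1 and 3 without valinomycin+DC3000 replicate 1, and APX1 was not called without replicate 1 or 2 of either group. The higher count was 3 with median-of-ratios rescaling and 4 with nuclear genes scaled to 1 total.

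Clock genes were nearly level between these groups, which is part of how the comparison was chosen and is given as a description. Of 23 tested members 4 were called higher and 0 lower, where 14.1% of all genes were called higher and 13.5% lower. Their median difference was 0.24, against -0.06 over all genes. The groups did not overlap upward for 10 of the 23 members and downward for 0. Over all genes these shares were 23.8% and 26.1%. The median absolute difference of the 23 was 0.26, against 0.30 over all genes. Between valinomycin and mock seedlings the median absolute difference of the same 23 genes was 2.59, against 0.47 over all genes. GI (AT1G22770, chromosome 1, 8061751 to 8067790, plus strand), an evening gene, gave 17.7, 17.5 and 14.8 FPKM in valinomycin+DC3000 seedlings and 17.0, 19.4 and 15.4 FPKM in DC3000 seedlings, and averaged 21.4 ± 2.48 FPKM in valinomycin and 0.312 ± 0.0672 FPKM in mock seedlings. TOC1, also of the evening, gave 35.2, 39.7 and 29.4 FPKM with both agents and 27.0, 27.2 and 24.9 FPKM with the bacterium alone (0.38 ± 0.15, limma adjusted p = 0.077). The morning gene LHY gave 2.53, 4. and 1.98 against 0.923, 0.880 and 2.11 FPKM, overlapped between the groups and missed the call (limma adjusted p = 0.16), while it averaged 9.13 ± 7.23 FPKM in valinomycin and 266 ± 52.9 FPKM in mock seedlings. CCA1 (AT2G46830, chromosome 2, 19245591 to 19248915, plus strand), the partner of LHY, gave 9.70, 11.6 and 8.87 FPKM with both agents and 3.097, 4.09 and 4.36 FPKM with the bacterium (1.19 ± 0.29, limma adjusted p = 0.00836). LNK2, a coactivator of the morning factors, rose to 77.4 ± 5.87 against 35.8 ± 4.16 FPKM, and RVE8 and PRR9 rose by 0.95 ± 0.27 and 0.64 ± 0.21. The call of RVE8 was lost without valinomycin+DC3000 replicate 1 or 2 or DC3000 replicate 2 or 3 (limma adjusted p up to 0.0682), and that of PRR9 lost without valinomycin+DC3000 replicate 1, 2 or 3 or DC3000 replicate 1 or 3 (limma adjusted p up to 0.148). The count of 4 was 7 with either rescaling of the libraries, and 2 without DC3000 replicate 3 or without valinomycin+DC3000 replicate 1 or 2.

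**Figure D4:**
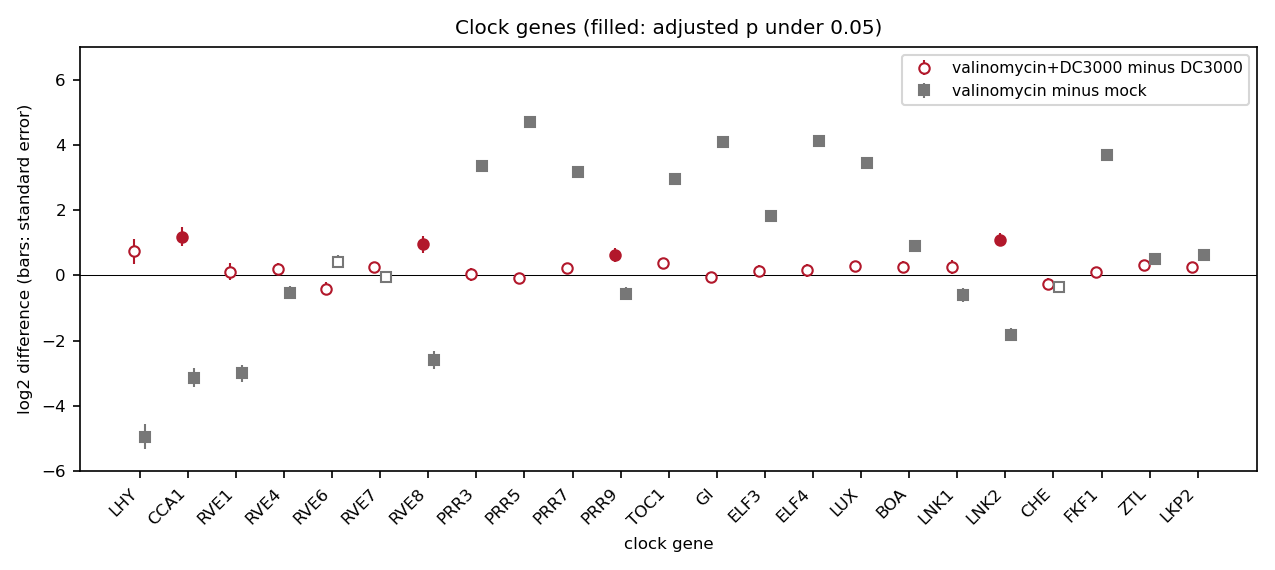
Log2 difference (y axis) with its standard error for the 23 tested clock genes (x axis), for valinomycin+DC3000 minus DC3000 (circles) and valinomycin minus mock (squares). Filled symbols were called. The circles lie between -0.41 and 1.19, while the squares reach -4.94 for LHY.

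The effect of valinomycin in the presence of the bacterium was set beside its effect without it, measured in the 6 other libraries. In valinomycin against mock 6943 genes (38.5%) were called higher and 2493 (13.8%) lower, together 52.3%. With median-of-ratios rescaling these were 4767 and 4911, and the median of all genes in this comparison was 0.00, against 0.27 as deposited. Of the 2551 genes called higher with the bacterium, 2011 were also called higher without it, which is 78.8% of these genes and 29% of those called higher without it, and 89 (3.49%) were called lower. Of the genes called lower, 926 of 2436 were called lower in both, which is 38% of them and 37.1% of those called lower without the bacterium, and 321 (13.2%) were called higher without it. Among genes that changed at least 2-fold, 917 of 1159 that rose were shared (79.1%) and 86 of 358 that fell (24%). With median-of-ratios rescaling, 61.4% of the genes called higher with the bacterium were called higher without it and 56.4% of those called lower were called lower without it.

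The interaction, the valinomycin effect with the bacterium minus that without, tests this difference over all 4 groups, mock included. It was called for 4449 genes (24.7%), positive for 947 (5.25%) and negative for 3502 (19.4%). This balance depends on the scaling of the libraries. With median-of-ratios rescaling 2476 were positive and 2210 negative, and the median interaction over all genes was -0.01, against -0.29 as deposited. With nuclear genes scaled to 1 total 1590 were positive and 2850 negative. It was called for 0 of the 12 largest rises. AT2G41730 averaged 611 ± 356 FPKM in valinomycin and 3.75 ± 0.979 FPKM in mock seedlings, and its interaction was -0.50 ± 0.53 (limma adjusted p = 0.516). For DTX3 the same levels were 102 ± 59.5 and 0.338 ± 0.125 FPKM and the interaction -0.44 ± 0.51 (limma adjusted p = 0.55). It was called for 8 of the 12 largest falls, or 7 with median-of-ratios rescaling, all negative. Those 12 genes were chosen for a negative difference that is itself a term of the interaction, so their sign supports nothing. COR15A averaged 204 ± 49.5 FPKM in valinomycin and 133 ± 50.5 FPKM in mock seedlings, where it missed the call (limma adjusted p = 0.0964), and its interaction was -3.39 ± 0.44 (limma adjusted p = 9.85e-05). COR15B averaged 52.6 ± 19.5 and 13.9 ± 5.19 FPKM in those groups, a called rise of 1.82 ± 0.36, and thus moved in opposite directions with and without the bacterium. Of the 12 falls 3 were called higher and 1 lower in valinomycin against mock. By list, the interaction was negative and called for 17 of 19 genes of jasmonate repression and turnover, 17 of 35 of the abscisic acid list, 12 of 20 of autophagy and 10 of 26 of low energy, where 19.4% of all genes were. With median-of-ratios rescaling these counts were 14, 16, 8 and 6, where 12.2% of all genes were. For AOC2, also chosen afterwards, it was -4.90 ± 0.25 (limma adjusted p = 1.72e-08), with means of 276 ± 22.02, 551 ± 129, 46.8 ± 2.60 and 2.15 ± 0.565 FPKM in valinomycin+DC3000, DC3000, valinomycin and mock seedlings. Of 19 calcium genes 6 had positive and 4 negative called interactions, and of 20 heat shock genes 5 and 4. With median-of-ratios rescaling these were 7 and 3 for calcium and 5 and 2 for heat shock, where 13.7% of all genes were positive. The single genes given next were chosen after their values were seen. HSP101 rose by 1.60 ± 0.27 without the bacterium, and its interaction was 1.73 ± 0.39 (limma adjusted p = 0.00565). PHI-1 was not called without the bacterium (0.23 ± 0.35, limma adjusted p = 0.596), and its interaction was 4.296 ± 0.50 (limma adjusted p = 3.5e-05). TCH4 and CML12 had interactions of 2.58 ± 0.53 and 2.41 ± 0.61 (limma adjusted p = 0.00342 and 0.0117). The mitochondrial stress list had 1 positive and 2 negative interactions among its 18 members.

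**Figure D5:**
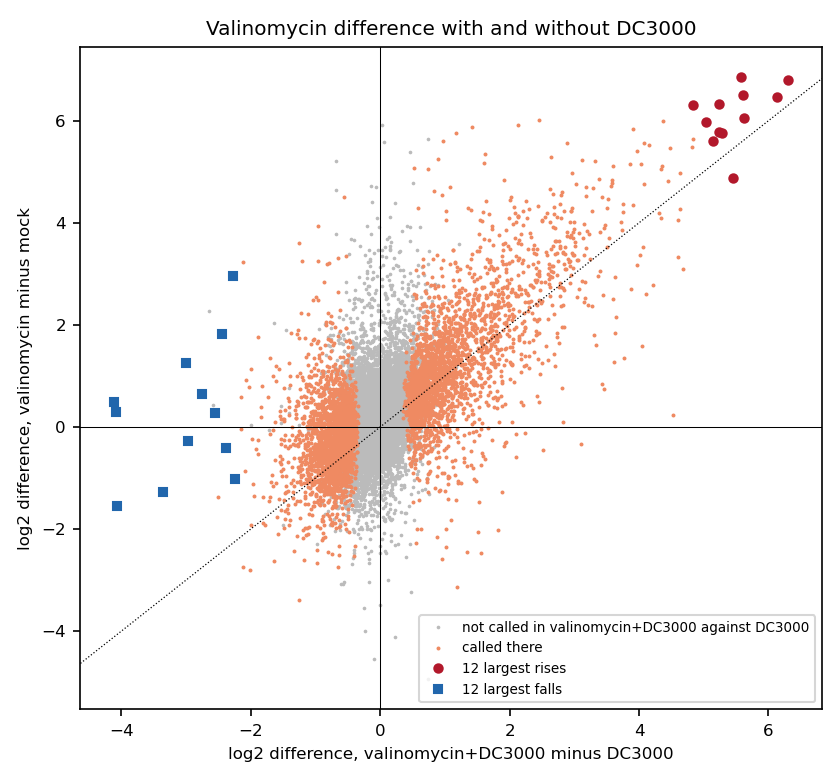
Log2 difference of every tested gene in valinomycin+DC3000 minus DC3000 (x axis) and in valinomycin minus mock (y axis), which share no library, with the line of equal differences dotted. The 12 largest rises lie high on both axes, at 4.83 to 6.31 on the x axis, and the 12 largest falls lie left of 0 on the x axis and on both sides of 0 on the y axis.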

How the data were processed

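RNA was made into 12 libraries with a CORALL total RNA kit, per the labels' protocols, and TAIR10 is the build in the submitters' processing notes. The sources used here name no aligner or counter, and do not say whether counting used strand. The authors deposited 1 table of normalized values. Its unit is not named and was read as FPKM, because low values move in steps set by gene and library and each library sums to more than TPM would allow.

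The deposited values were turned into log2(FPKM + 1), which understates the fold change of low genes. The 18048 genes that averaged 1 FPKM or more were fitted with limma 3.58.1 (R 4.3.3, 4 group means, trend in the prior spread) on all 12 libraries, which share 1 estimate of the spread. P-values were adjusted by Benjamini-Hochberg over all these genes. Alternatives were another pseudocount, other filters and scalings, the 6 libraries alone, a replicate block and leaving out each library.

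The comparison, the 31 gene lists (2 of them the organelle genomes) and the 4 marker lists were chosen with earlier results of these data known. A locus was found for 805 of 807 symbols on the lists, but some of these loci have no deposited value. Of 19 symbols of jasmonate and coronatine output 13 had a value and 13 were tested, and of 21 flavonoid symbols 13 had a value and 10 were tested. Counts cover only members that had a value and passed the filter on low values. The text names, in each direction, the 12 called genes with the largest differences among those with groups that do not overlap and a higher mean of at least the median of 9.88 FPKM, as well as the 4 called members of each list with the largest differences (where fewer than 2 were called, the 2 with the highest means), and a set of well-known genes. Every other gene was chosen after its values were seen. All 20054 nuclear loci of the table were matched to RefSeq TAIR10.1, the source of coordinates and promoters. Overlapping genes and near-identical copies were looked for among the 144 nuclear genes chosen by this rule, and not among the others.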

Additional observations from a re-analysis of the deposited data

Results flagged for a closer look

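For 8 of the 12 genes with the largest falls, the valinomycin effect with the bacterium differed from that without it by the interaction test (limma adjusted p under 0.05), and each difference was negative. With median-of-ratios rescaling 7 of the 12 were called. These genes were chosen for their falls with the bacterium, a term of the same difference, so its sign carries no independent information. On the log2 scale it was -5.23 for AT4G30650, -4.36 for AT3G02480, -4.27 for COR15B, -4.26 for LTP3, -3.39 for COR15A, -2.84 for CER1, -2.70 for KIN1 and -1.97 for EXPA16.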

How the results depend on the processing

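The 4987 genes called ranged from 2916 to 4487 with 1 library left out, with 2916 without valinomycin+DC3000 replicate 2, 3276 without DC3000 replicate 1 and 3320 without DC3000 replicate 2, and the cause was not tested. The 2551 called higher ranged from 1681 to 2297, and the 2436 called lower from 1235 to 2484. The share called higher was 61.9% without DC3000 replicate 2 (2055 higher, 1265 lower), 44.6% without DC3000 replicate 3 (2003 and 2484), against 51.2% with all libraries, and 59.4% with nuclear genes scaled to 1 total (3476 and 2374). The other alternatives gave counts of genes called in this comparison within 1.5 times the main ones, with 2499 higher and 2389 lower for a pseudocount of 0.1. Negative interactions numbered 2210 with median-of-ratios rescaling, against 3502 as deposited. Of the 152 genes chosen by the naming rule 142 were called. Of these, 118 were called under every alternative, 24 lost the call in at least 1 and 0 changed direction. Genes chosen after their values were seen are not in these counts, and many of their calls were lost with 1 library left out. Deviations from the group means of valinomycin+DC3000 and DC3000 samples with the same replicate number correlated at r of 0.053, -0.126 and -0.117. For valinomycin+DC3000 and valinomycin samples these were -0.242, 0.129 and 0.439. With 3 libraries a group such values cannot decide whether the numbers pair the samples. With the replicate number as a block, 5338 genes were called, 2882 higher and 2456 lower. Depth is known only from steps in the values, and 3 libraries a group limit the precision of small differences.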
